A study of Homo sapiens with 3 samples.

Results

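Rh-30 is an established line of alveolar rhabdomyosarcoma (ARMS), a tumour with muscle features, and expresses the fusion protein PAX3-FOXO1. Expression of 33 genes of the Z-disc and of actinin binding was examined in Rh-30 cells after transfection with siPAX3-FOXO1 (siPF), siB7-H3 or siControl (siCont). The siRNAs were used at 5 nM with a single siRNA per target, and RNA was taken 24 h after transfection. Each condition was measured on 1 Affymetrix U133 Plus expression array, so 3 arrays were compared and no condition had another. All cells came from the same line, and the labels set them apart only by the siRNA received. With 1 array per siRNA, differences between cultures or arrays cannot be told apart from those of the siRNA. Differences between arrays therefore came without an estimate of replicate error, and no p-value was computed. The rule was a list of symbols and set no threshold on a difference between arrays. The members, and the lists read beside them, were nevertheless chosen with earlier results of these data known. Of the 33 genes, 31 had a probe set named with that gene alone, among 19775 genes named in this way. Where probe sets of a gene differed, the brightest on average (on the log2 scale) stood for the gene. An intensity of 135, which lies at about the 60th percentile of each array, served as the level limit. In all, 21 genes reached it on at least 1 array, 10 stayed under it on all arrays, and FLNC and FHL1 had no probe set named with them.

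The Z-disc is the plate that bounds the sarcomere, the contractile unit of striated muscle. Alpha-actinin dimers cross-link the actin filaments of neighbouring sarcomeres there, and a dense set of adaptor proteins with PDZ, LIM and immunoglobulin domains docks on alpha-actinin. Many of these adaptors have relatives in stress fibres and focal adhesions of cells that are not muscle. During muscle differentiation, immature stress-fibre-like structures give way to Z-discs, and several adaptors are made late in that process.

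Muscle and target genes gave the setting for these values. Of 10 measured skeletal muscle markers, 8 reached the level limit, as did 2 of 6 cardiac, 3 of 6 smooth muscle and 1 of 3 endothelial markers, whereas none of 5 epithelial and none of 3 blood cell markers did. DES is on both the skeletal and the smooth muscle list. The other smooth muscle markers at the limit, ACTG2 and SMTN, lay between 149 and 267. The endothelial marker was PECAM1, with 621 in siPF, 910.1 in siB7-H3 and 699 in siCont. The summed intensity of the skeletal muscle markers was 75625 in siPF, 69562 in siB7-H3 and 58875 in siCont, and MYF6 and TNNC1 were the 2 of them under the limit. ACTC1, the gene of cardiac alpha-actin, was the brightest of them, with 38707 in siPF, 32753 in siB7-H3 and 26987 in siCont. It was the largest single part of each sum, and the sums add probe sets that do not share a scale. Of the 8 at the limit, 6 were higher in siPF and 7 in siB7-H3 than in siCont. The exceptions in siPF were the myogenic factors MYOD1, with 8688 in siPF, 13046 in siB7-H3 and 11471 in siCont, and MYF5, with 213 in siPF, 342 in siB7-H3 and 415 in siCont. MYF5 was also the exception in siB7-H3. MYOG, the gene of the differentiation factor myogenin, had an intensity of 3386 in siPF, 1269 in siB7-H3 and 605 in siCont. MYOG was thus highest in siPF and lowest in siCont. FOXO1, a partner gene of the fusion, had 249 in siPF, 650.0 in siB7-H3 and 678 in siCont. CD276, the gene of B7-H3, had 1381 in siPF, 362 in siB7-H3 and 1486 in siCont. FOXO1 and CD276 were thus lowest on the array of the siRNA against them or their fusion. PAX3, the other partner gene of the fusion, had 329 in siPF, 398 in siB7-H3 and 381 in siCont, a log2 difference of -0.21 in siPF. At another PAX3 probe set at the limit, siB7-H3 was the lowest array, with 194 in siPF, 154 in siB7-H3 and 233 in siCont. The part that muscle marker levels play in the values below was not tested. The arrays had the same trimmed mean intensity of 500.1. The 42 probe sets of added control transcripts had median log2 differences of 0.20 for siPF and 0.25 for siB7-H3 against siCont. These probe sets were not separated by the step at which their transcripts were added, so the medians do not measure labelling alone. The part of these control differences in the values below was not tested either.

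Among the 21 genes at the level limit, 18 were higher in siPF than in siCont, against 52.6% of all 10601 genes at that level. In siB7-H3, 13 were higher than in siCont, against 52.8% of all genes. The median log2 difference of the 21 genes was 0.21 in siPF, beside 0.02 over all genes, and 0.05 in siB7-H3, beside 0.02. These medians depended on the choice of probe sets. Without probe sets that can bind several transcripts they were 0.61 in siPF and 0.12 in siB7-H3 over 13 genes. The medians over all genes in that setting were 0.009 and 0.012. The 0.61 was the value of a PDLIM4 probe set that reached the limit through siPF alone. XIRP1 and SYNPO2 likewise reached it only through the knockdown arrays, so for these genes the direction in siPF was set by the limit. With the middle value of each gene's probe sets the siB7-H3 median was -0.034 over 18 genes, beside -0.005 over all genes. In siPF, 5 genes were at least 1.5-fold higher (XIRP1, SYNPO2L, PDLIM2, PDLIM5 and SYNPO2) and none was at least 1.5-fold lower. Over all genes, 5.76% were higher and 4.67% lower by this measure. In siB7-H3, 4 were at least 1.5-fold higher (XIRP1, PDLIM5, SYNPO2L and PDLIM2) and none was lower, against 4.41% and 3.83% of all genes. A 2-fold difference was reached upward by XIRP1 and SYNPO2L in siPF (1.40% of all genes) and by XIRP1 in siB7-H3 (0.868% of all genes). No gene of the 21 was 2-fold lower in either comparison, beside 1.16% and 0.821% of all genes. With 21 genes, none cannot be set apart from shares of that size. The siPF and siB7-H3 comparisons share their siCont array and are not independent. XIRP1 and SYNPO2 were under the level limit in siCont and passed it only through the knockdown arrays, so for these the count could go in 1 direction alone.

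**Figure D1:**
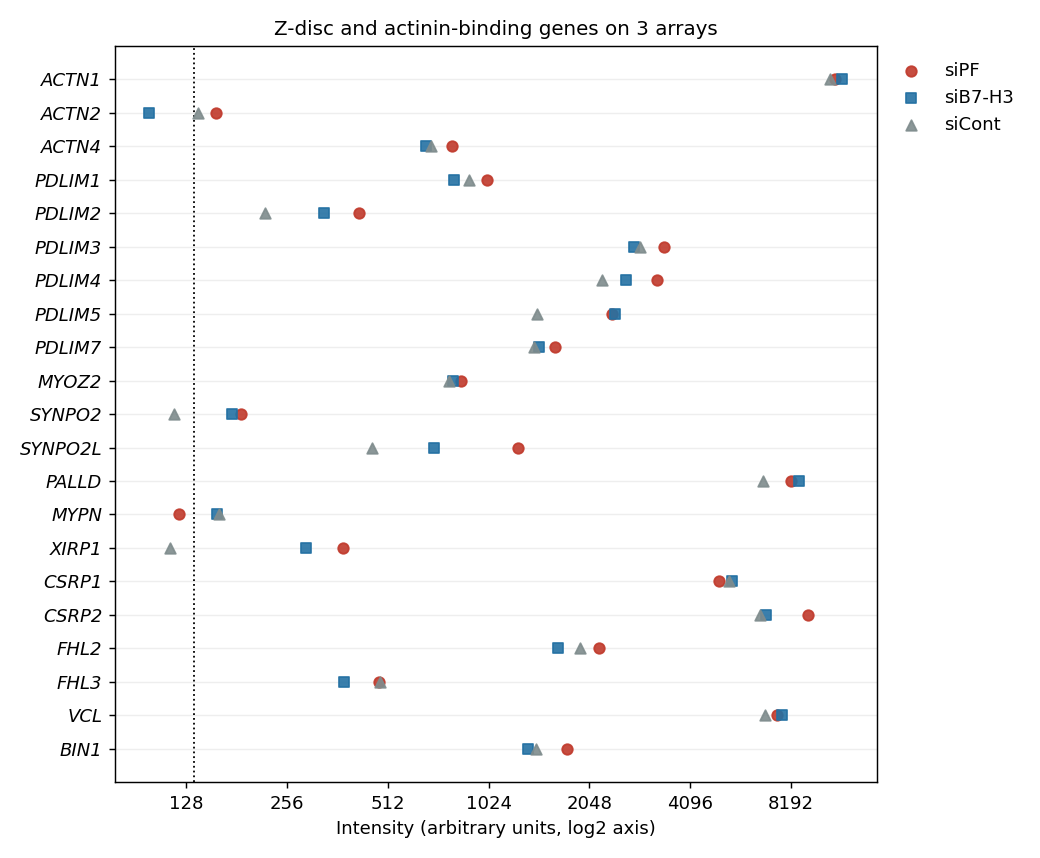
Intensity of the 21 genes at the level limit on the siPF, siB7-H3 and siCont arrays, 1 point per array on a log2 axis, with the limit of 135 as a dotted line. Points are to be compared within a row, since different probe sets do not share a scale. The siPF point lies farthest right in 14 rows, the siB7-H3 point in 5 and the siCont point in 2 (MYPN and FHL3).

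**Figure D2:**
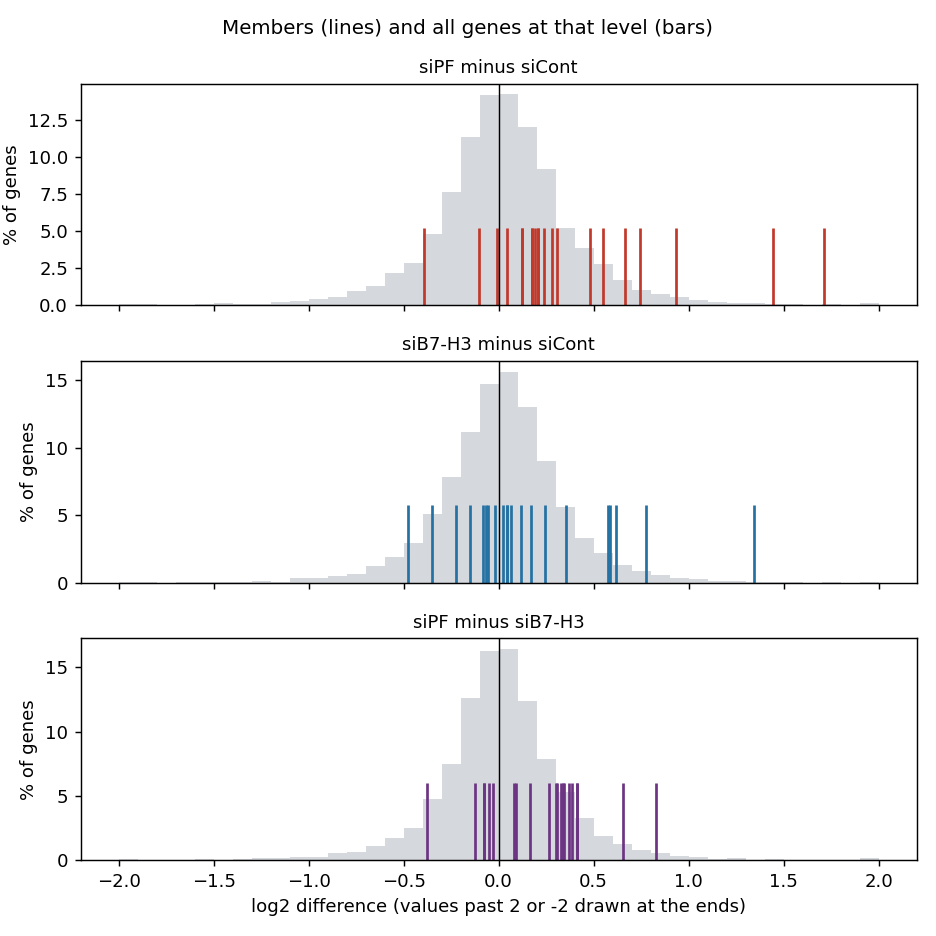
Log2 differences of the 21 genes (coloured lines) over those of all 10601 genes at the level limit (grey bars, % of genes per bin, values past 2 or -2 drawn at the ends), with siPF minus siCont at the top, siB7-H3 minus siCont in the middle and siPF minus siB7-H3 at the bottom. The gene lines of the siPF panel lie mostly right of 0 (18 of 21) and reach 1.71, and those of the siB7-H3 panel lie on both sides (13 of 21 right of 0) and reach 1.35.

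XIRP1 and SYNPO2L were the 2 genes past 2-fold in siPF. XIRP1 encodes Xin, an actin-binding repeat protein of striated muscle attachment sites. XIRP1 had an intensity of 378 in siPF, 293 in siB7-H3 and 115 in siCont, a log2 difference of 1.71 for siPF and 1.35 for siB7-H3 against siCont. Both knockdown arrays lay above siCont, by 3.28-fold and 2.54-fold, a direction that was set by the level limit, which siCont did not reach. With values under 135 set to 135, the differences were 1.48 and 1.12, so XIRP1 stayed past 2-fold. XIRP1 had no other probe set to compare. Its paralog XIRP2 stayed under the limit, with 76.8 in siPF, 58.0 in siB7-H3 and 65.9 in siCont, and NRAP, a nebulin-related anchoring protein of myofibril assembly, had 16.1 in siPF, 4.47 in siB7-H3 and 20.0 in siCont.

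SYNPO2L encodes a synaptopodin-like Z-disc protein of heart and skeletal muscle that binds alpha-actinin. SYNPO2L had 1252 in siPF, 706 in siB7-H3 and 459 in siCont, a log2 difference of 1.45 and 0.62. The order of the 3 arrays was the same at its other probe set, with 1207 in siPF, 677 in siB7-H3 and 309 in siCont, which gave 1.97 and 1.13. At that probe set siB7-H3 also passed 2-fold. The difference between both knockdown arrays was nearly the same at both probe sets, 0.83 and 0.84.

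SYNPO2 encodes myopodin, an actin-bundling relative that binds filamin and alpha-actinin. SYNPO2 had 187 in siPF, 176 in siB7-H3 and 118 in siCont, a log2 difference of 0.66 and 0.57. With values under 135 set to 135 these became 0.47 and 0.38, so the 1.5-fold difference in siPF was lost. Its other probe set at the level limit had 209 in siPF, 117 in siB7-H3 and 114 in siCont. siCont was under the limit at both probe sets, and siB7-H3 at the second, so their common direction in siPF was set by the limit. SYNPO, the synaptopodin of kidney podocytes and dendritic spines, stayed under the limit, with 101 in siPF, 64.2 in siB7-H3 and 20.1 in siCont. Its remaining probe sets disagreed in direction, with 49.7, 21.5 and 18.7 at one and 9.04, 7.18 and 36.0 at the other in the same order of arrays.

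Promoter sequences are shown for XIRP1 and SYNPO2L, the genes past 2-fold in siPF, and for PDLIM5, whose difference in siB7-H3 was the highest of the 21 genes after XIRP1. The RefSeq windows of GRCh38.p14 run from 250 bases before to 50 bases after the start site, and 29 of the 33 genes had 58 windows in that table. The capitals mark E-boxes (CANNTG, which CAGCTG is one form of), the sites bound by myogenic basic helix-loop-helix factors, and the MEF2 site, searched on both strands.
XIRP1, chr3:39192546-39192845, minus strand: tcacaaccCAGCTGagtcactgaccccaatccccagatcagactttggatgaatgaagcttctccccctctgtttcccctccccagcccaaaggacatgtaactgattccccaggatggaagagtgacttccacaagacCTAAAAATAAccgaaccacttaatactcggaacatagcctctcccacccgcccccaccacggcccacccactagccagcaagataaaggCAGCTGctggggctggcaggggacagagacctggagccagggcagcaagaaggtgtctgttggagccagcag
SYNPO2L, chr10:73655980-73656279, minus strand: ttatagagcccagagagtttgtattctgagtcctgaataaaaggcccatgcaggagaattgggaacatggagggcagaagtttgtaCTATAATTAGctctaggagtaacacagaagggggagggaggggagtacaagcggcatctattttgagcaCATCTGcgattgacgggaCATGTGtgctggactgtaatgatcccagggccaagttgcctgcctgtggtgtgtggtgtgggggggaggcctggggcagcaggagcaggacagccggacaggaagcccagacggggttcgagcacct
PDLIM5, chr4:94451692-94451991, plus strand: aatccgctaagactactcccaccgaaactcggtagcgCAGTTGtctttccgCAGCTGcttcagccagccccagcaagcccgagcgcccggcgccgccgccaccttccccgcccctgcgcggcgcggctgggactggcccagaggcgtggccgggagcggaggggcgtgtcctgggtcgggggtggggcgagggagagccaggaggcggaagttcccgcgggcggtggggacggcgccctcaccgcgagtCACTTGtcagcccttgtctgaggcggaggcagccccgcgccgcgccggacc

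The XIRP1 window held 2 E-boxes, both of the form CAGCTG, at positions -242 and -22 from the start site, and a MEF2 site at -111. The SYNPO2L window held 2 E-boxes of other forms, at -95 and -77, and a MEF2 site at -164. The PDLIM5 window held 3 E-boxes, at -213, -199 and -1, of which the one at -199 was CAGCTG, and no MEF2 site. Among the 58 windows, 74.1% held an E-box, against 68.7% of all 35116 windows, and 32.8% held CAGCTG, against 17.9%. The MEF2 site was in 12.1% of the windows of these genes (MYOZ1, MYOZ2, SYNPO2L, XIRP1, XIRP2 and FHL2), against 2.99% of all. The CArG box, the site of serum response factor, was also in 12.1% (LDB3, ACTN1, FHL1 and FHL2), against 1.29% of all. The sequence CATTCC, bound by TEAD factors and searched with its complement, was in 19.0%, against 14.0%. Windows of 1 gene can overlap, as those of LDB3 and FHL2 do, and the letters describe the windows only. Of the 5 genes at least 1.5-fold higher in siPF, PDLIM2 had no window here, XIRP1 and SYNPO2L held a MEF2 site, and SYNPO2 and PDLIM5 did not.

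The PDZ-LIM proteins bind alpha-actinin by a PDZ domain and kinases or other partners by their LIM domains. All 6 members at the level limit were higher in siPF than in siCont, with log2 differences of 0.18 to 0.93. In siB7-H3, 4 of 6 were higher, from -0.15 to 0.77. Over all genes at that level, 52.6% were higher in siPF and 52.8% in siB7-H3. PDLIM5 encodes ENH, which tethers protein kinase C isoforms to the Z-disc. PDLIM5 had 2393 in siPF, 2439 in siB7-H3 and 1426 in siCont, a log2 difference of 0.75 and 0.77. All 5 of its probe sets with a mean level over the limit were above siCont on both knockdown arrays, by 0.38 to 1.04 in siPF and by 0.12 to 0.77 in siB7-H3. Of these 5, siPF was higher than siB7-H3 at 3, whereas at the brightest both arrays were nearly equal. Another probe set had 150.3 in siPF, 174 in siB7-H3 and 82.0 in siCont and reached the limit through the knockdown arrays alone.

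PDLIM2 encodes a nuclear and cytoskeletal member also known as mystique. PDLIM2 had 420.1 in siPF, 331 in siB7-H3 and 220.2 in siCont, a log2 difference of 0.93 and 0.59. The value in siB7-H3 lay just past 1.5-fold, and with quantile normalization it was 0.57 and no longer past it. Its other probe set was at 4.52 in siPF, 6.31 in siB7-H3 and 5.67 in siCont, far under the limit.

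PDLIM4 encodes RIL, an actin stress fibre protein that also interacts with alpha-actinin. PDLIM4 had 3255 in siPF, 2637 in siB7-H3 and 2226 in siCont, a log2 difference of 0.55 and 0.24, short of 1.5-fold. All 3 of its probe sets with a mean level over the limit had siPF above siCont, by 0.54 to 0.71, and 1 of these passed 1.5-fold. In siB7-H3 the same probe sets were above siCont by 0.10 to 0.24. Another probe set had 147 in siPF, 78.1 in siB7-H3 and 95.9 in siCont and reached the limit through siPF alone. PDLIM3, the actinin-associated LIM protein of skeletal muscle, had 3431 in siPF, 2774 in siB7-H3 and 2906 in siCont. PDLIM1 had 1010.0 in siPF, 806 in siB7-H3 and 893 in siCont. Both were a little higher in siPF and a little lower in siB7-H3, within a log2 difference of 0.24. PDLIM7, the Enigma protein, had 1619 in siPF, 1444 in siB7-H3 and 1400 in siCont, and its 6 probe sets at the level limit went both ways. Their log2 differences lay between -0.38 and 0.63 for siPF and between -0.24 and 0.13 for siB7-H3. LDB3, which encodes the main PDZ-LIM protein of mature striated muscle, stayed at 58.4 or lower on all arrays.

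**Figure D3:**
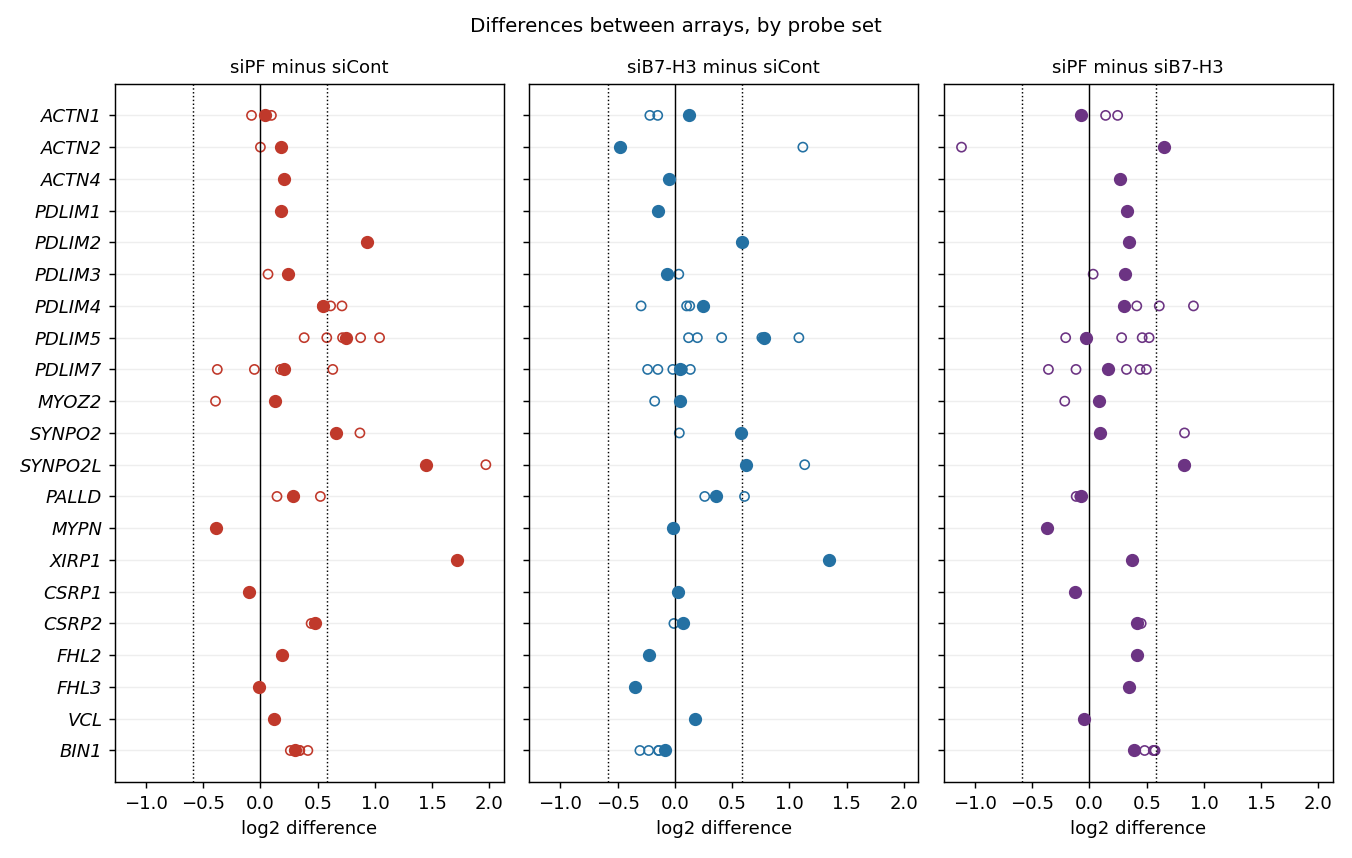
Log2 differences of the 21 genes for siPF minus siCont (left), siB7-H3 minus siCont (middle) and siPF minus siB7-H3 (right), with the probe set used as a filled point, other probe sets at the level limit as open points and 1.5-fold as dotted lines. SYNPO2L, PALLD and BIN1, bright at every point shown, have all points right of 0 in the left panel, whereas PDLIM7, MYOZ2 and ACTN2 have points on both sides of 0 in the middle panel.

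No alpha-actinin was past 1.5-fold against siCont at the probe set used. ACTN1, a form of cells that are not muscle, had 11038 in siPF, 11625 in siB7-H3 and 10708 in siCont, and its 3 probe sets at the level limit lay between -0.08 and 0.10 for siPF and between -0.22 and 0.12 for siB7-H3. ACTN4, the other such form, had 799 in siPF, 666 in siB7-H3 and 692 in siCont. ACTN2, the sarcomeric form of all striated muscles, lay at the level limit, with 157 in siPF, 99.7 in siB7-H3 and 139 in siCont. Its probe sets did not settle a direction in siB7-H3, since another had 68.0, 148 and 68.0 in the same order of arrays and reached the limit through siB7-H3 alone. With values under 135 set to 135, the difference of siB7-H3 from siCont at the probe set used was -0.04, against -0.48 without. ACTN3, the sarcomeric form of fast fibres, stayed at 81.3 or lower. The sarcomeric forms thus gave low intensities on all 3 arrays, under or near the limit.

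The calsarcins link alpha-actinin to the phosphatase calcineurin. MYOZ2, the form of heart and slow fibres, had 850 in siPF, 803 in siB7-H3 and 779 in siCont, and its other probe set at the level limit went the other way, with 648 in siPF, 753 in siB7-H3 and 851 in siCont. No direction can be read from these. MYOZ1, the fast fibre form, had 103 in siPF, 97.2 in siB7-H3 and 80.2 in siCont, and MYOZ3 had 63.3, 104 and 95.6, all under the limit. In the RefSeq annotation of GRCh38.p14 each calsarcin gene lies next to a synaptopodin gene with 0 protein-coding genes between, namely MYOZ1 beside SYNPO2L on chromosome 10, MYOZ2 beside SYNPO2 on chromosome 4 and MYOZ3 beside SYNPO on chromosome 5. MYOZ1, MYOZ3 and SYNPO were under the limit on all arrays, so the differences of neighbours were not set against each other.

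In the palladin family of immunoglobulin-domain scaffolds, PALLD had 8186 in siPF, 8625 in siB7-H3 and 6738 in siCont. Palladin organizes actin bundles in many cell types. All 3 PALLD probe sets at the level limit were above siCont on both knockdown arrays, by 0.14 to 0.52 in siPF and by 0.26 to 0.61 in siB7-H3, and all 3 were higher in siB7-H3 than in siPF. MYPN, which tethers nebulin and alpha-actinin, had 122 in siPF, 158 in siB7-H3 and 160.3 in siCont, the lowest log2 difference of the 21 genes in siPF (-0.39). The siPF value of MYPN was under the limit, which the other arrays reached, so this direction was set by the limit. With values under 135 set to 135 the difference was -0.25. MYOT, the gene of myotilin, stayed at 15.3 or lower.

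Of the cysteine-rich LIM proteins, CSRP2 had 9196 in siPF, 6904 in siB7-H3 and 6595 in siCont, a log2 difference of 0.48 and 0.07. Its other probe set gave 0.44 and -0.01, so siPF stood apart from both other arrays at both probe sets. CSRP1, an actin-bundling relative, had 4982 in siPF, 5439 in siB7-H3 and 5346 in siCont, the opposite order of siPF and siCont. CSRP3, the muscle LIM protein, stayed at 9.22 or lower. Of the LIM-only FHL proteins, FHL2 had 2191 in siPF, 1646 in siB7-H3 and 1921 in siCont. FHL3 had 482 in siPF, 381 in siB7-H3 and 486 in siCont. In both, siB7-H3 was the lowest array.

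VCL, the gene of vinculin, which ties actin to integrin and cadherin adhesions, had 7438 in siPF, 7693 in siB7-H3 and 6832 in siCont, a log2 difference of 0.12 and 0.17. BIN1, the gene of amphiphysin II, which shapes the membrane of the transverse tubules, had 1758 in siPF, 1343 in siB7-H3 and 1423 in siCont. All 5 BIN1 probe sets had siPF above siCont, by 0.26 to 0.41, and siB7-H3 below siCont, with log2 differences of -0.08 to -0.31. No BIN1 probe set passed 1.5-fold. All 5 placed the arrays in the order siPF, siCont, siB7-H3, but they read the same RNA on the same arrays and are not replicates. CRYAB, a small heat shock protein that protects desmin and actin filaments, had 62.4 in siPF, 54.9 in siB7-H3 and 14.9 in siCont and stayed under the limit.

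The 10 genes under the limit on all arrays had intensities from 4.47 to 104 at the probe sets used. CRYAB and SYNPO were at least 2-fold higher in both knockdowns, and NRAP was at least 2-fold lower in siB7-H3. At such intensities large differences were common in both directions. Of the 9174 genes under the limit on all arrays, 19.3% were at least 2-fold higher and 18.9% lower in siPF, and 17.9% were higher and 19.4% lower in siB7-H3.

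**Figure D4:**
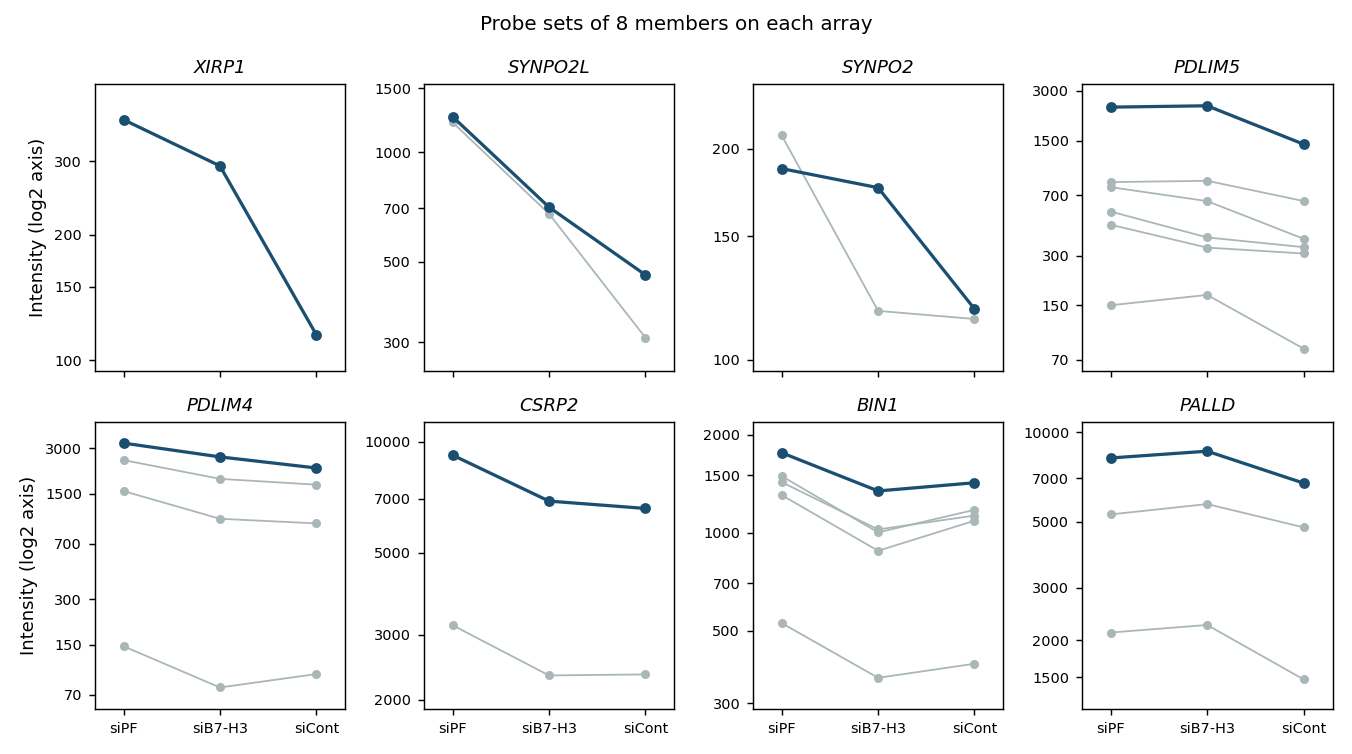
Intensity on the siPF, siB7-H3 and siCont arrays (log2 axes with a range of their own) of each probe set at the level limit for 8 genes, with the probe set used in dark blue and the others in grey. Both SYNPO2L probe sets fall in the order siPF, siB7-H3, siCont, all PALLD probe sets are highest in siB7-H3, and all BIN1 probe sets are highest in siPF and lowest in siB7-H3.

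The siPF and siB7-H3 arrays were also compared directly, which does not involve siCont. Of the 21 genes, 15 were higher in siPF than in siB7-H3, against 51.0% of all genes at that level, and the median log2 difference was 0.30, beside 0.00489 over all genes. The control transcripts had a median of -0.00615 in this comparison. SYNPO2L (0.83) and ACTN2 (0.65) were at least 1.5-fold higher in siPF and no gene was at least 1.5-fold lower, against 4.08% and 3.76% of all genes. The ACTN2 difference rested on a siB7-H3 value under the limit. With values under 135 set to 135 it was 0.22, short of 1.5-fold, and another probe set gave -1.12. Of the other genes higher in siPF, FHL2 had 0.41, CSRP2 0.41, BIN1 0.39, XIRP1 0.37 and PDLIM2 0.34. FHL3 had 0.34, PDLIM1 0.33, PDLIM3 0.31 and PDLIM4 0.30. ACTN4, PDLIM7, SYNPO2 and MYOZ2 had 0.26 to 0.08. PALLD, ACTN1, VCL, CSRP1, PDLIM5 and MYPN were higher in siB7-H3, by log2 differences of -0.03 to -0.37. The -0.37 was that of MYPN and rested on a siPF value under the limit. With values under 135 set to 135, MYPN had -0.23. These arrays hold no measure of the spread between cultures. Over all genes, the middle of the siPF minus siB7-H3 differences, from the 5th to the 95th percentile, ran from -0.58 to 0.63 at mean intensities from 135 to 500, where XIRP1 and PDLIM2 lie. It ran from -0.45 to 0.46 at 500 to 2000, where SYNPO2L, BIN1 and FHL2 lie, and from -0.38 to 0.35 over 2000, where CSRP2 and PDLIM4 lie. SYNPO2L and CSRP2 were above the 95th percentile of their range.

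Genes that share these structures were read beside the members. Of 40 other Z-disc and myofibril-linked genes, 36 had a probe set and 19 reached the level limit. In siPF, 8 were above and 11 below siCont, with a median of -0.06. In siB7-H3, 11 were above and 8 below, with a median of 0.06. Over all genes at that level, 52.6% were above siCont in siPF and 52.8% in siB7-H3, each with a median of 0.02. KLHL41, a sarcomere assembly factor, had 4381 in siPF, 2680 in siB7-H3 and 1953 in siCont, the 1 gene of this list past 2-fold. In siPF, 1.40% of all genes were at least 2-fold higher. NEB, the gene of the thin filament ruler nebulin, had 2104 in siPF, 1799 in siB7-H3 and 1275 in siCont. DES, the gene of the Z-disc intermediate filament desmin, had 4533 in siPF, 3399 in siB7-H3 and 2776 in siCont. These 3 genes were at least 1.5-fold higher in siPF, as were 5.76% of all genes. DNAJB6, a chaperone, had 797 in siPF, 1112 in siB7-H3 and 1344 in siCont, and CAVIN4, a caveola protein of muscle, had 167 in siPF, 174 in siB7-H3 and 256 in siCont. Both were at least 1.5-fold lower in siPF, as were 4.67% of all genes. In siB7-H3 no gene of this list was past 1.5-fold in either direction, beside 4.41% of all genes higher and 3.83% lower. With 19 genes, none cannot be set apart from shares of that size. Between siPF and siB7-H3, KLHL41 was past it, with a log2 difference of 0.71, as were 4.08% of all genes upward.

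Of 45 focal adhesion and stress fibre genes, 43 had a probe set and 35 reached the level limit. In siPF, 24 were above and 11 below siCont, with a median of 0.12, beside 52.6% above and 0.02 over all genes. In siB7-H3, 20 were above and 15 below, with a median of 0.06, beside 52.8% above and 0.02. TAGLN, the gene of transgelin, had 1058 in siPF, 622 in siB7-H3 and 578 in siCont. ILK, the integrin-linked kinase, had 2341 in siPF, 1799 in siB7-H3 and 1418 in siCont. PXN, the gene of the adhesion scaffold paxillin, had 503 in siPF, 476 in siB7-H3 and 310 in siCont. These 3 genes were at least 1.5-fold higher in siPF, against 5.76% of all genes. ITGB1BP2, the gene of the muscle chaperone melusin, had 122 in siPF, 208 in siB7-H3 and 201 in siCont. ITGB1BP2 was at least 1.5-fold lower in siPF, against 4.67% of all genes, with a siPF value under the level limit. In siB7-H3, PXN and TLN1, the gene of talin, were at least 1.5-fold higher and none lower, against 4.41% and 3.83% of all genes. TLN1 had 142 in siPF, 162 in siB7-H3 and 98.9 in siCont. TLN1 was under the level limit in siCont. Directly against siB7-H3, TAGLN (0.77), MYLK (0.64), the gene of myosin light chain kinase, and BCAR1 (0.60), the gene of the adhesion adaptor p130Cas, were at least 1.5-fold higher in siPF. BCAR1 had 168 in siPF, 111 in siB7-H3 and 141 in siCont, so its difference rested on a siB7-H3 value under the level limit. ITGB1BP2 (-0.78) and SVIL (-0.68), the gene of the actin-binding protein supervillin, were at least 1.5-fold lower. Over all genes, 4.08% were higher and 3.76% lower by this measure.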

How the data were processed

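RNA of Rh-30 cells transfected with siPF, siB7-H3 or siCont was measured on 1 array each. Per the labels, the authors computed the deposited intensity of each probe set, a linear value, in Expression Console 1.4.1. How probes were summarized is not given in the sources used here. The trimmed mean (2% left out at each end) was the same on all arrays. Intensities were taken to log2 with no floor, and gene names came from GEO's platform table, with symbols updated through RefSeq. Of 54675 probe sets, 41091 were named with 1 gene, 1801 with several, 11721 with none and 62 were controls. The members had 89 probe sets. Probe positions along the transcripts were not used, so whether probe sets of a gene overlap was not checked. Probe sets of a gene are not replicates of a condition. Genes were counted at log2 differences of at least 1 or 0.585 in size, with no test, as each group had 1 array. Members and lists were chosen with earlier results of these data known. All members are accounted for, and of the other lists those past 1.5-fold at the level limit are named. Alternatives were other probe set choices, scalings and level filters. Counting and selection, tested on simulated data first, ran in Python 3.11.15 (numpy 2.4.6, pandas 2.3.3), and plots were drawn with matplotlib 3.10.9.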

Additional observations from a re-analysis of the deposited data

How the results depend on the processing

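Centring the arrays, quantile normalization, the probe set with the highest value, a limit on the mean level and double the limit left the counts of members past 2-fold and 1.5-fold against siCont within 1.5 times those reported, as did setting low values to the limit. The same settings were tried for siPF against siB7-H3 after seeing the data. There 1 member (SYNPO2L) in place of 2 was at least 1.5-fold higher with low values at the limit, with the limit on the mean level and with double the limit. Without a limit 1 member was at least 2-fold and 4 at least 1.5-fold higher and 1 at least 1.5-fold lower, and another ACTN2 probe set gave -1.12. Without a level limit, 4 members were at least 2-fold and 9 at least 1.5-fold higher in siPF and 2 at least 1.5-fold lower. In siB7-H3, 3 were at least 2-fold and 7 at least 1.5-fold higher, 1 was at least 2-fold and 2 at least 1.5-fold lower. Without probe sets that can bind several transcripts, 13 members were left and their median in siPF was 0.61. That median was the value of a PDLIM4 probe set at the limit through siPF alone. When each gene took the middle value of its probe sets, 18 members were left and their median in siB7-H3 was -0.034, against 0.045 as reported. Single probe sets opposed a member past 1.5-fold in siPF for PDLIM2 (-0.33), PDLIM5 (-0.65) and SYNPO2 (-0.10), and in siB7-H3 for PDLIM5 (-0.83 and -0.58), all under the level limit. With 1 array per condition, no replicate could be left out. The precision of each difference is unknown, and probe sets at low intensity give the least reliable values.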
